A study of Mus musculus with 8 samples.

Results

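Macrophages carry surface receptors, signalling adaptors and degradative enzymes, many of which are scarce in most other cells. Described here are 49 macrophage and leukocyte genes in forelimb buds cultured with a mixture of organophosphate esters (OPE). Some of the 49 are also made by other cells, as given below. The members were chosen by name, from known roles in macrophages and other leukocytes, and were grouped into 9 classes by the kind of protein they encode. Earlier results of these data were known when the choice was made. Shares over all genes that are set beside the members are therefore description and no independent test. Of the 49, 48 had a row among the 21692 genes of the deposited table, 43 had enough reads to be tested and 5 did not. Adgre1, which encodes the F4/80 antigen, was not analysed here. CD1 mouse embryos at gestation day 13 provided the buds, which spent 24 h in culture. They received either the vehicle dimethyl sulfoxide (DMSO) or, at a dilution of 1 in 300000, an OPE mixture modelled on Canadian house dust, where these flame retardants and plasticisers collect. There were 4 libraries with vehicle (vehicle 1 to 4) and 4 with the mixture (OPE 1 to 4), and the labels name no genotype other than the strain. Nothing in the labels ties the replicates to different litters or cultures, and a p-value here therefore measures only the spread between these samples, which may be technical.

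Macrophages reach the limb early in development, settle among the mesenchyme and clear dying cells, for example between the forming digits. They sense their surroundings through chemokine, purine and Toll-like receptors, and take up debris through scavenger, lectin and Fc receptors. Many of these receptors have no signalling tail of their own and pass the signal through the adaptors Tyrobp (DAP12) and Fcer1g to kinases such as Syk. What has been taken up is broken down by lysosomal enzymes and by the oxidants of the phagocyte oxidase. The transcription factor PU.1, encoded by Spi1, controls many genes of this programme, and the receptor Csf1r keeps the cells alive.

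The libraries held 14986793 to 22006738 reads counted to genes. Values are given as CPM, read counts scaled by library size, and log2 fold changes are OPE minus vehicle with their standard error (SE) from the edgeR quasi-likelihood test over all 15517 genes tested. OPE 1 and OPE 3 differed from the rest in ways that touch the results below. OPE 1 lay apart on the second principal component of log2 CPM. OPE 3 lay apart on the first, had relatively fewer reads on long genes (log2 CPM fell by 0.27 per doubling of gene length, against a slope of -0.04 to 0.12 in the other 7), and gave 8.83% of its reads to 81 ribosomal protein genes, against 4.43% to 5.68% elsewhere.

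Most of the macrophage and leukocyte genes had lower values with OPE, and the size of the difference varied widely among them. Of the 43 tested members, 8 fell past an adjusted p of 0.05 (edgeR, Benjamini-Hochberg over all genes), none rose past it and 35 did not pass. Over all genes tested, 0.438% fell past it and 0.0387% rose. Among the 8 were the chemokine receptor gene Cx3cr1, the purine receptor gene P2ry6, and the endocytic receptor genes Mrc1 and Stab1. The others were the membrane protein gene Ms4a6c, the lysosomal protein gene Laptm5, the cytoskeletal gene Lcp1 and the nuclease gene Pld4. The median log2 fold change of the 43 was -1.02, 49.5% of the vehicle level, against 0.01 over all genes tested. A value below 0 was found in 41 of the 43, against 47.2% of all genes, and in 29 the 4 OPE values lay below the 4 vehicle values, against 5.44% of all genes. In no member did the 4 OPE values lie above the 4 vehicle values, against 4.05% of all genes. An unadjusted p of 0.05 or less with a lower value was found in 34, against 7.31%. The filter asked for about 0.544 CPM in 4 libraries, and 8 of the tested members reached it in all 4 vehicle libraries but not in all 4 OPE libraries, so these counts lean towards genes that are low with OPE. Those members were Cx3cr1, Ms4a6c, Siglec1, Itgb2, Clec4a1, Ms4a6b, Cybb and Pf4. Ms4a6c and Siglec1 reached it in no OPE library. Cx3cr1 and Ms4a6c are also among the members that fell past the threshold. Over the 48 members in the table, tested or not, the median of the mean log2 difference from vehicle was -0.98, with 45 below 0 and 3 above. In RNA from whole buds, fewer macrophages and less of these RNAs per macrophage cannot be told apart.

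**Figure D1:**
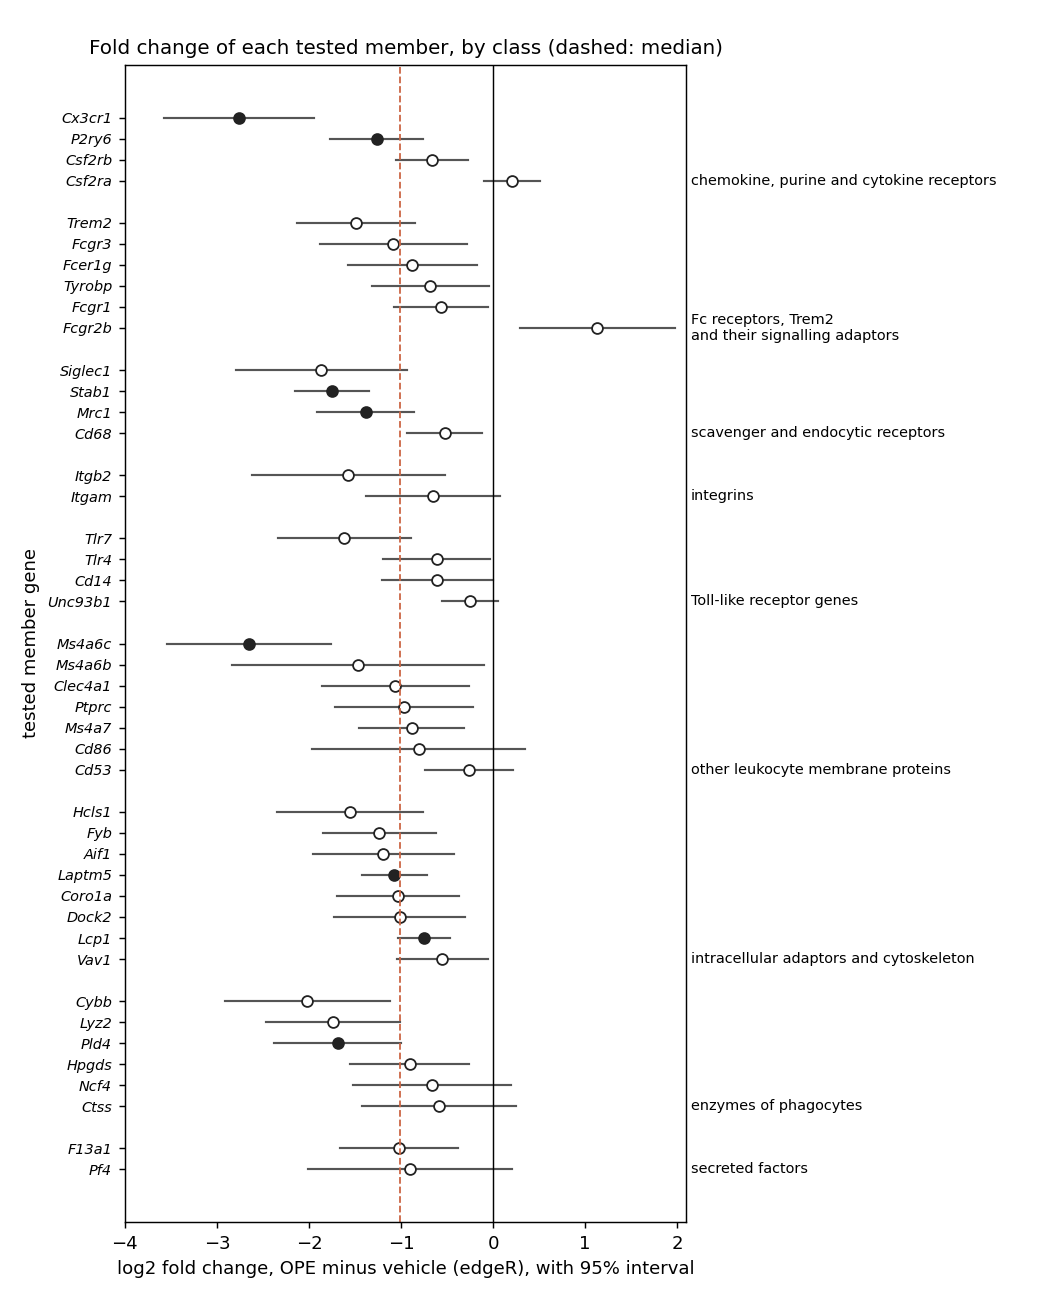
Log2 fold change (OPE minus vehicle) of each of the 43 tested members from edgeR, with its 95% interval, grouped by class; filled circles passed an adjusted p of 0.05 over all genes, and the dashed line is the median of -1.02. Of the 43 circles, 41 lie left of 0, and Csf2ra and Fcgr2b lie to the right.

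The count of 8 depended on which libraries entered the fit. It was 1, 1, 2 and 1 without vehicle 1, 2, 3 or 4, and 8, 1, 16 and 9 without OPE 1, 2, 3 or 4. The share of all genes that fell moved with it, at 0.0443%, 0.0384%, 0.115% and 0.0383% without vehicle 1, 2, 3 or 4, and 0.275%, 0.0697%, 1.43% and 0.823% without OPE 1, 2, 3 or 4. Only Stab1 passed in all 8 of these fits, while Cx3cr1 passed in 4, Laptm5, Lcp1 and Pld4 in 3, Mrc1 and Ms4a6c in 2, and P2ry6 in 1. No tested member changed the sign of its log2 fold change in any of them. DESeq2 on the same counts called 20 members lower, against 1.88% of all genes with an adjusted p in that fit. The authors' deposited table has an adjusted p of 0.05 or less and a lower value for 20 of the 46 members with such a p, against 1.8% of the genes there.

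By class, the scavenger and endocytic receptor genes had the lowest median log2 fold change, -1.56 over 4 tested members. The highest was that of the Toll-like receptor genes with Cd14 and Unc93b1, -0.61 over 4. Between them lay the enzymes of phagocytes (-1.30 over 6), the integrins (-1.11 over 2), the intracellular adaptors and cytoskeletal genes (-1.05 over 8), the other leukocyte membrane proteins (-0.97 over 7), the chemokine, purine and cytokine receptors (-0.96 over 4), the secreted factors (-0.96 over 2), and the Fc receptors with Trem2 and their adaptors (-0.78 over 6). The classes were small and overlapped: each of the 9 had a member at -0.90 or higher and a member at -1.02 or lower. No class was tested against another. Without the filter on low counts the scavenger class, then with Cd163 and Lyve1, had a median of -1.03 and the receptor class, then with P2ry12, a median of -1.27, so the order of these classes rests on which rare genes are counted.

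Among the receptors for chemokines, purines and cytokines, Cx3cr1 and P2ry6 fell and both chains of a growth factor receptor did not pass. Cx3cr1, the receptor through which tissue macrophages sense the chemokine fractalkine, had 13.6, 9.13, 8.66 and 8.30 CPM in vehicle 1 to 4 and 0.508, 1.65, 1.18 and 2.66 CPM in OPE 1 to 4. Every OPE library was below every vehicle library, and OPE 1 was the lowest. The fall was 2.76 ± 0.37 (SE) on the log2 scale, to 14.8% of the vehicle level (edgeR adjusted p = 0.0158), the largest of the 43. In the mm10 genome Cx3cr1 lies on chromosome 9 (119901616 to 120068283), on the minus strand, and this span of 166668 bases also holds parts of 5 other counted genes, although none shares exon bases with it in GENCODE M21. P2ry6, the receptor through which phagocytes sense the nucleotide UDP, had 3.22, 3.11, 3.47 and 4.26 CPM with vehicle and 1.11, 1.72, 1.8 and 1.27 CPM with OPE. All OPE values were lower than all vehicle values, and the fall was 1.27 ± 0.23 (adjusted p = 0.0452; chromosome 7, 100937638 to 100964391).

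Csf2ra and Csf2rb encode the 2 chains of the receptor for the growth factor GM-CSF, and their values lay on either side of 0. Csf2ra had 25.2, 36.6, 29.4 and 35.9 CPM with vehicle and 35.5, 40.0, 40.0 and 30.9 CPM with OPE. The groups overlapped, with a log2 fold change of 0.20 ± 0.14 (adjusted p = 0.583), whose 95% interval from -0.10 to 0.51 lies wholly above the median of the members. Csf2rb gave -0.66 ± 0.18 (adjusted p = 0.129), with no overlap between the groups. P2ry12, a purine receptor gene best known from microglia and platelets, had too few reads for the test, 35 in all with vehicle and 6 in all with OPE.

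Scavenger and endocytic receptors bind modified proteins, sugars and cell debris and bring them into the cell. Stab1, which encodes stabilin-1, had 54.5, 46.1, 46.1 and 46.5 CPM in the vehicle libraries and 9.69, 15.5, 12.9 and 19.6 CPM in the OPE libraries. All OPE values were less than the lowest vehicle value by a wide margin, and the fall was 1.75 ± 0.18 (adjusted p = 0.00441), the smallest p of the members. Mrc1, the mannose receptor CD206, had 10.9, 7.65, 8.90 and 9.37 CPM with vehicle and 2.45, 2.71, 3.68 and 5.40 CPM with OPE. No OPE library reached the vehicle range, and the fall was 1.38 ± 0.24 (adjusted p = 0.0388). Siglec1, the sialic acid receptor CD169, was scarce, with 1.75, 0.918, 0.749 and 0.843 CPM with vehicle and 0.369, 0.199, 0.347 and 0.20 CPM with OPE. Its log2 fold change of -1.87 ± 0.42 was the lowest of the class and did not pass (adjusted p = 0.0855). Cd68, a lysosomal membrane glycoprotein of phagocytes, had 17.7, 25.2, 25.1 and 23.9 CPM with vehicle and 10.8, 16.1, 20.0 and 17.2 CPM with OPE. OPE 3 lay inside the vehicle range, and the log2 fold change of -0.53 ± 0.19 was the highest of the class (adjusted p = 0.248).

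Stab1 lies on chromosome 14 (31139013 to 31168641) and Mrc1 on chromosome 2 (14229414 to 14332057). Stab1 shares 1.09% of its exon bases with Nt5dc2 on the opposite strand, a gene with 23234 reads over the 8 libraries against 4826 for Stab1. No source used here says whether reads were counted by strand, and the value of Stab1 is uncertain to that extent. Both Stab1 and Mrc1 are also made by some endothelial cells, whose markers are described below.

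The purine-rich hexamer GAGGAA, the core of many PU.1 sites, was searched on both strands (TTCCTC on the other) in the 250 bases before the start site of each gene, in the promoter table of RefSeq (build GRCm38.p6). Of the 48 members 35 had a window there and 13 did not. The hexamer was present in 21 of the 35 (60.0%), against 23.3% of the 32851 windows in the table, and the longer GAGGAAGT, which contains it, in 3 (8.57%) against 2.44%. Of the 8 members that fell 7 had a window, and it held the hexamer in 3 (Mrc1, Stab1 and Laptm5) and not in 4 (Cx3cr1, Ms4a6c, Lcp1 and Pld4). Windows are shown for the 2 scavenger receptor genes that fell, which hold the hexamer, for Pld4, which fell and does not hold it, and for Csf2ra, which did not pass the test and holds it in 2 adjacent copies; each is 5′ to 3′ on the gene's own strand, with matches in capitals.
Mrc1 (chr2:14229164-14229413, plus strand): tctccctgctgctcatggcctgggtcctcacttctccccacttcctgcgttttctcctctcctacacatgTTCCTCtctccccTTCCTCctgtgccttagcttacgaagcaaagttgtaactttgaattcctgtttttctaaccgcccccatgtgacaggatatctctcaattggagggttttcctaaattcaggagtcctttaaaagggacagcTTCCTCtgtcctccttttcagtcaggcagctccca
Stab1 (chr14:31168642-31168891, minus strand): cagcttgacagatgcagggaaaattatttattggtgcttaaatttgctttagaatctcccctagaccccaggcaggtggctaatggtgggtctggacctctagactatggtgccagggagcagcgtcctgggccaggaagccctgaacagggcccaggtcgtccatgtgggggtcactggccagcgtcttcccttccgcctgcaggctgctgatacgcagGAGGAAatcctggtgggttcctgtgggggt
Pld4 (chr12:112760405-112760654, plus strand): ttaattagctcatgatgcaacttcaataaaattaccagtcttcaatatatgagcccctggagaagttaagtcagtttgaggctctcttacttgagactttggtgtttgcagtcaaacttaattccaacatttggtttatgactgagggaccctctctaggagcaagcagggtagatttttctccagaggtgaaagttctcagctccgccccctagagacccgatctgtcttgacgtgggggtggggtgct
Csf2ra (chr19:61228419-61228668, minus strand): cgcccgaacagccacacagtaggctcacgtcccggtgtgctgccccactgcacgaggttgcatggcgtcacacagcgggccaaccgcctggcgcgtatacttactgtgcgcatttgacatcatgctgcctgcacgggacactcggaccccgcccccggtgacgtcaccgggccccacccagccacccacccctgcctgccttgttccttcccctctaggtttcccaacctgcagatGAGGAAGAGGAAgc
In Mrc1 the matches begin 180, 167 and 35 bases before the start site, in Stab1 30 bases before it, and in Csf2ra 14 and 8 bases before it. The presence of the letters is a description of the window and says nothing of whether PU.1 was bound there in these buds.

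None of the 6 genes of Fc receptors, Trem2 and their adaptors passed the test. Trem2, a lipid-sensing receptor of phagocytes, had 5.25, 8.41, 7.07 and 7.23 CPM with vehicle and 1.15, 2.71, 3.54 and 2.73 CPM with OPE. The groups did not overlap, and the log2 fold change of -1.49 ± 0.29 lay just outside the threshold (adjusted p = 0.0522). Its adaptor Tyrobp gave -0.68 ± 0.29 (adjusted p = 0.341) and the adaptor of the activating Fc receptors, Fcer1g, -0.88 ± 0.32 (adjusted p = 0.262). In Tyrobp only OPE 4 reached the vehicle range, and in Fcer1g only OPE 3. The activating receptor genes Fcgr3 and Fcgr1 gave -1.09 ± 0.36 and -0.57 ± 0.23 (adjusted p = 0.218 and 0.322), with no overlap in either.

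The inhibitory Fc receptor gene Fcgr2b had the highest log2 fold change of all tested members. It had 0.564, 1.63, 0.562 and 0.843 CPM with vehicle and 1.57, 2.45, 2.57 and 1.40 CPM with OPE. Vehicle 2 lay above OPE 1 and OPE 4, and the log2 fold change of 1.13 ± 0.38 did not pass (adjusted p = 0.224). Its 95% interval of 0.29 to 1.98 does not meet the interval of Fcgr3, from -1.88 to -0.29.

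The 2 integrin genes encode the chains of complement receptor 3 and were near the limit of detection. Itgb2, the shared beta chain of leukocyte integrins, had 0.847, 1.33, 1.78 and 1.46 CPM with vehicle and 0.138, 0.265, 0.832 and 0.666 CPM with OPE, a log2 fold change of -1.57 ± 0.48 (adjusted p = 0.181). Itgam (CD11b) had 1.98, 1.58, 0.749 and 1.51 CPM with vehicle and 0.738, 0.926, 1.11 and 0.933 CPM with OPE (-0.65 ± 0.33, adjusted p = 0.436). For Itgb2 the groups were separate by a narrow margin, and for Itgam they overlapped through vehicle 3.

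In the class of Toll-like receptor genes with Cd14 and Unc93b1, Tlr7 encodes an endosomal sensor of RNA. Tlr7 had 5.42, 3.21, 3.65 and 3.91 CPM with vehicle and 0.831, 0.860, 1.32 and 2.33 CPM with OPE. Again the groups were separate, and the log2 fold change of -1.61 ± 0.33 did not pass (adjusted p = 0.061). Unc93b1, which carries endosomal Toll-like receptors to their compartment, had 19.6, 20.6, 18.4 and 17.5 CPM with vehicle and 15.5, 12.4, 19.4 and 16.7 CPM with OPE (-0.25 ± 0.14, adjusted p = 0.489), and OPE 3 lay inside the vehicle range. Its interval of -0.56 to 0.06 lies wholly above the members' median, whereas that of Tlr7, the receptor it carries, runs from -2.34 to -0.89. The lipopolysaccharide receptor genes Tlr4 and Cd14 both gave -0.61 (adjusted p = 0.353 and 0.377).

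Of the other leukocyte membrane proteins, 1 of 7 tested genes fell. Ms4a6c, a tetraspan membrane protein of myeloid cells, had 1.81, 1.94, 1.26 and 1.29 CPM with vehicle and 0.185, 0.199, 0.486 and 0.133 CPM with OPE, that is, 27 to 38 reads against 2 to 7. The groups were far apart, and the fall was 2.65 ± 0.40 (adjusted p = 0.0247; chromosome 19, 11469366 to 11482192). No OPE library reached the 0.544 CPM of the filter, so Ms4a6c entered the test through its vehicle values alone. In GENCODE M21, 53.1% of its exon bases are shared with RP23-32C18.5 on the opposite strand, which had 41 reads over all libraries against 142, so its value is uncertain without knowledge of the strand setting. Its relatives Ms4a6b and Ms4a7 gave -1.47 ± 0.62 and -0.89 ± 0.26 (adjusted p = 0.341 and 0.165). Ms4a6b had 32 to 40 reads in each vehicle library, and 0, 12, 21 and 8 reads in OPE 1 to 4. Cd53, a tetraspanin of leukocytes, was the least different of the class, with 6.15, 6.07, 5.20 and 5.73 CPM with vehicle and 3.23, 4.17, 6.80 and 5.26 CPM with OPE (-0.26 ± 0.22, adjusted p = 0.679). In that gene OPE 1 and OPE 2 lay below all vehicle libraries and OPE 3 above them. Ptprc, the leukocyte common antigen CD45, gave -0.97 ± 0.34 (adjusted p = 0.248), and Clec4a1 and Cd86 gave -1.06 and -0.80 (adjusted p = 0.229 and 0.569).

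All 8 genes of the class of intracellular adaptors and cytoskeleton had values below 0, and 2 fell. Laptm5 was placed in this class although it encodes a lysosomal protein. Laptm5, a lysosomal protein of blood cells, had 26.1, 27.2, 27.5 and 31.2 CPM with vehicle and 9.28, 14.5, 13.5 and 16.3 CPM with OPE. The groups did not overlap, and the fall was 1.07 ± 0.16 (adjusted p = 0.0222; chromosome 4, 130913125 to 130936141). Lcp1, the actin-bundling protein L-plastin, had 32.8, 31.1, 31.7 and 29.3 CPM with vehicle and 14.3, 19.4, 19.4 and 21.4 CPM with OPE. Its fall of 0.75 ± 0.13 was the smallest of the 8 genes that passed (adjusted p = 0.0388; chromosome 14, 75131101 to 75230842), and the vehicle libraries differed little from one another. Hcls1, a cortactin-like actin regulator, had the lowest log2 fold change of the class, with 4.63, 6.17, 4.50 and 5.73 CPM with vehicle and 0.60, 1.52, 2.36 and 2.86 CPM with OPE (-1.55 ± 0.36, adjusted p = 0.0906). Vav1, a signalling protein of blood cells, had the highest, with 4.35, 3.47, 4.26 and 4.66 CPM with vehicle and 2.12, 2.25, 3.75 and 3.40 CPM with OPE (-0.55 ± 0.22, adjusted p = 0.325). The adaptor Fyb gave -1.24 ± 0.28 (adjusted p = 0.0828), and Aif1 (IBA1), Coro1a and Dock2, which act on actin and cell movement, gave -1.19, -1.03 and -1.02 (adjusted p = 0.166, 0.165 and 0.203).

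Of the 6 enzymes of phagocytes 1 fell, and all 6 had their lowest value in OPE 1. Pld4, an endolysosomal nuclease, had 5.02, 5.10, 4.36 and 3.82 CPM with vehicle and 0.554, 1.72, 1.8 and 1.73 CPM with OPE. OPE 1 was well below the other 3, which were nearly equal, and the fall was 1.69 ± 0.31 (adjusted p = 0.0484; chromosome 12, 112760655 to 112768986). Cybb, the catalytic subunit of the phagocyte oxidase, had 2.65, 2.5, 2.58 and 1.78 CPM with vehicle and 0.138, 0.728, 0.763 and 0.799 CPM with OPE. The groups did not overlap, and the log2 fold change of -2.02 ± 0.41, the lowest of the class, did not pass (adjusted p = 0.0589). Lyz2, lysozyme M, gave -1.74 ± 0.33 (adjusted p = 0.0516), with 40.5, 48.3, 31.9 and 39.1 CPM with vehicle and 4.43, 10.6, 19.0 and 14.5 CPM with OPE. Ctss, the lysosomal protease cathepsin S, had the highest value of the class, with 10.6, 11.6, 9.55 and 11.2 CPM with vehicle and 2.17, 6.15, 13.1 and 7.53 CPM with OPE. In Ctss OPE 3 lay above every vehicle library and the other 3 OPE libraries below (-0.59 ± 0.38, adjusted p = 0.564). The oxidase subunit gene Ncf4 and the prostaglandin D synthase gene Hpgds gave -0.66 and -0.91 (adjusted p = 0.514 and 0.206).

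Neither of the 2 genes of secreted factors passed. F13a1, the A chain of coagulation factor XIII and a marker of some tissue macrophages, had 5.93, 3.47, 4.21 and 2.66 CPM with vehicle and 1.62, 1.46, 2.64 and 2.33 CPM with OPE (-1.02 ± 0.29, adjusted p = 0.158). Pf4, the chemokine platelet factor 4, had 1.58, 1.12, 1.45 and 0.976 CPM with vehicle and 0.185, 0.463, 1.60 and 0.599 CPM with OPE (-0.90 ± 0.51, adjusted p = 0.491). The F13a1 groups were separate by a narrow margin between vehicle 4 and OPE 3, and in Pf4 OPE 3 lay above all vehicle libraries.

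**Figure D2:**
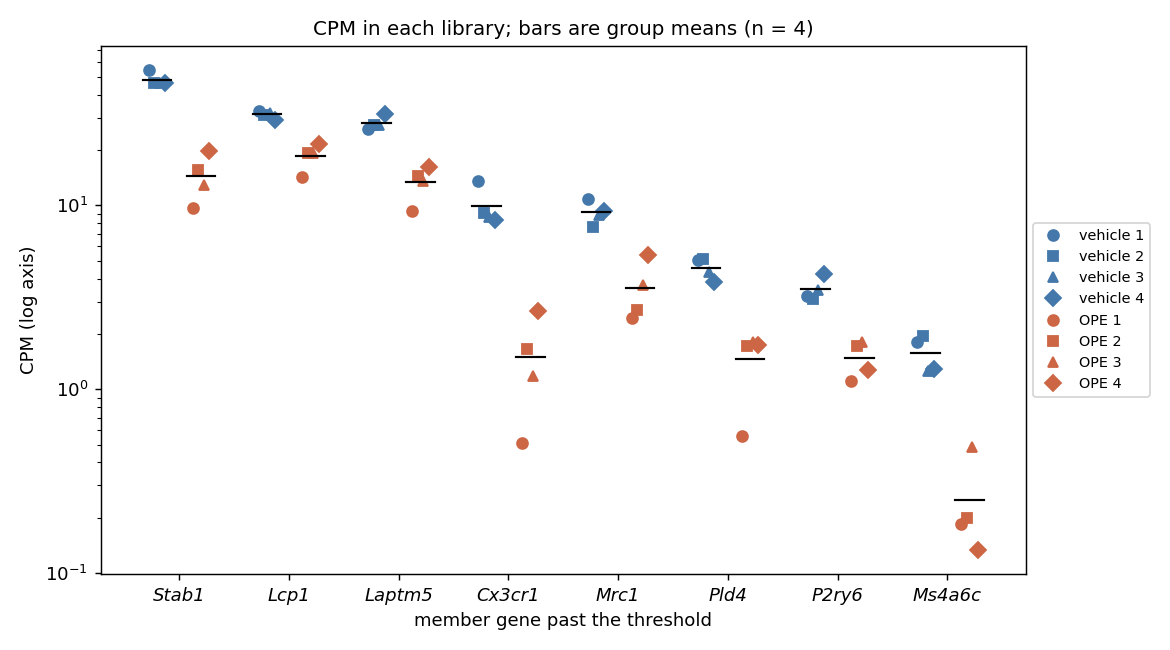
CPM (log axis) of the 8 members that passed an adjusted p of 0.05, in the vehicle (blue) and OPE (orange) groups; each point is a library and each bar the mean of 4. In each of the 8 genes the 4 OPE libraries lie below the 4 vehicle libraries, from 0.508 to 2.66 against 8.30 to 13.6 CPM in Cx3cr1.

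The 5 members without enough reads were compared by their summed reads, scaled for depth, with exact 95% binomial intervals that cover counting error only. P2ry12 had a ratio of OPE to vehicle of 0.210 (0.0723 to 0.505) and Cd52, a small glycoprotein of leukocytes, a ratio of 0.555 (0.305 to 0.975) from 19 and 42 reads. Cd52 shares 14.5% of its exon bases with Aim1l on the opposite strand, which had 132 reads over the 8 libraries against 61, so its ratio is uncertain in the same way as the value of Stab1. All 46561 bases of the P2ry12 span overlap Med12l on the opposite strand, which had 1545 reads against 41. Only 0.35% of the exon bases of P2ry12 are shared, and its ratio is uncertain to that extent. P2ry12 had 14, 3, 11 and 7 reads in vehicle 1 to 4. For the scavenger receptor Cd163 (6 and 5 reads), the hyaluronan receptor Lyve1 (7 and 14) and the sialic acid receptor Cd33 (18 and 29), the intervals hold 1, and a difference was not detectable at this depth. Of the 5 reads of Cd163 with vehicle, all came from vehicle 4, and of the 19 reads of Cd52 with OPE, 12 came from OPE 3.

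Levels of different genes were compared on the deposited FPKM scale, which allows for gene length. With vehicle the order was led by Lyz2 (32.1 ± 5.46 FPKM, SD, n = 4 libraries), Cd68 (19.0 ± 3.01), Csf2ra (17.5 ± 3.10) and Tyrobp (15.3 ± 2.51). Each of the last 3 differed from its neighbour in this order by less than the SD, while Lyz2 lay above them. With OPE it was led by Csf2ra (19.4 ± 2.07) and Cd68 (12.7 ± 2.82), and Lyz2 (9.31 ± 4.50) and Tyrobp (9.30 ± 3.67) no longer differed beyond their spread. At the low end of the tested members, Siglec1, Itgam and Cd86 had a mean of 0.169, 0.308 and 0.341 FPKM with vehicle. Across the 43 members the log2 fold change was unrelated to the vehicle level in CPM (Pearson r = -0.01 across genes, which are not independent replicates).

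The point estimates were uneven across members, within the precision of most of them. The 95% interval of 34 of the 43 held the median of -1.02, that of Cx3cr1, Stab1, Ms4a6c and Cybb lay wholly below it, and that of Csf2ra, Fcgr2b, Cd68, Unc93b1 and Cd53 wholly above it. The quartiles of the members were -1.48 and -0.66. By point estimate 22 were at least 2-fold lower. An interval that holds the median leaves room for a smaller or larger change: in 34 of the 43 it lay wholly below 0, and in Pf4, for example, it ran from -2.02 to 0.21.

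The 4 OPE libraries were uneven too. The median of the 43 members relative to the vehicle mean, on the log2 CPM scale, was -1.82 in OPE 1, -0.996 in OPE 2, -0.55 in OPE 3 and -0.74 in OPE 4, while the vehicle libraries lay between -0.09 and 0.12. OPE 1 was the lowest of the 4 in 33 members, against 6, 1 and 3 for OPE 2, 3 and 4, and OPE 3 was the highest in 25. Below all 4 vehicle libraries were 40 members in OPE 1, 40 in OPE 2, 30 in OPE 3 and 37 in OPE 4. Such counts for single libraries were not taken over all genes. OPE 1 and OPE 3 also lay apart from the rest over all genes tested, as given above. How far this order of the libraries is particular to the members is therefore not known. The values of a member spanned a median of 1.38 on the log2 scale among the OPE libraries and 0.51 among those with vehicle, and the span was wider with OPE in 36 of the 43. This span was not taken over all genes. Between pairs of libraries the chi-square over its degrees of freedom was 9.58 to 69.8 with OPE and 4.80 to 17.4 with vehicle. Counting error is also larger on the log2 scale at the lower reads with OPE, and its part was not tested. Summed over the members in the table, the level was 349 to 393 CPM in the vehicle libraries and 141, 198, 247 and 223 CPM in OPE 1 to 4. Without OPE 1 and OPE 3, 9 members fell past the threshold, 6 of them among the 8, against 0.388% of all genes tested in that fit.

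**Figure D3:**
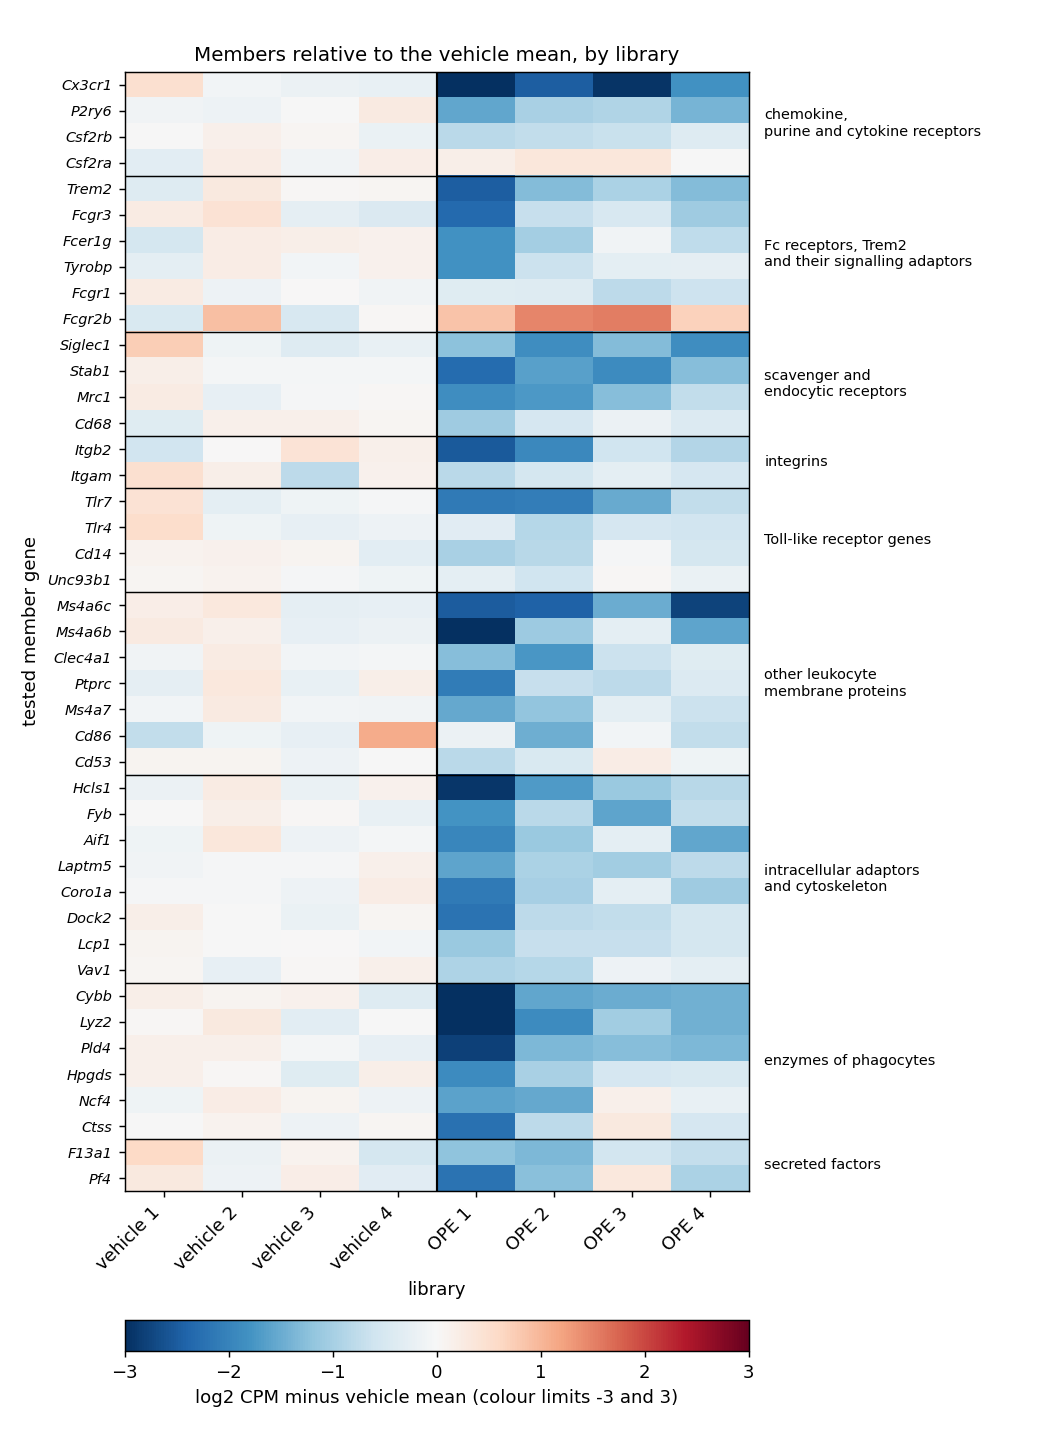
Log2 CPM of each of the 43 tested members minus its vehicle mean, with 1 column for each library and 1 row for each gene, grouped by class; blue is lower and red is higher, with the colours limited to -3 and 3. The OPE 1 column is the darkest blue (median -1.82) and the OPE 3 column the palest (median -0.55), and the rows of Csf2ra and Fcgr2b are white or red in the 4 OPE columns.

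Gene length was read beside the values, since OPE 3 had relatively fewer reads on long genes. The 16 members of up to 2000 bases had a median of -0.29 in OPE 3 and the 27 longer members -0.69, and across the 43 members the difference of OPE 3 from the vehicle mean had a Pearson r of -0.42 with log2 length. It was -0.03 to -0.13 in the other OPE libraries, and 0.38, -0.30, -0.22 and -0.04 in vehicle 1 to 4, so correlations of nearly this size were also present without OPE. Over all libraries the shorter and longer members had median log2 fold changes of -0.97 and -1.02, with 3 of 16 and 5 of 27 past the threshold. The groups did not overlap in 8 of the 16 and in 21 of the 27. Over all genes tested, of any length, 0.438% fell past the threshold, and in 5.44% the OPE values all lay below the vehicle values. These shares over all genes were not taken by length. With each library's trend of gene length removed, 19 members fell past the threshold, among them the 8, against 1.37% of all genes. In that fit 213 of all genes tested were lower and 157 higher, against 68 and 6 without it.

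**Figure D4:**
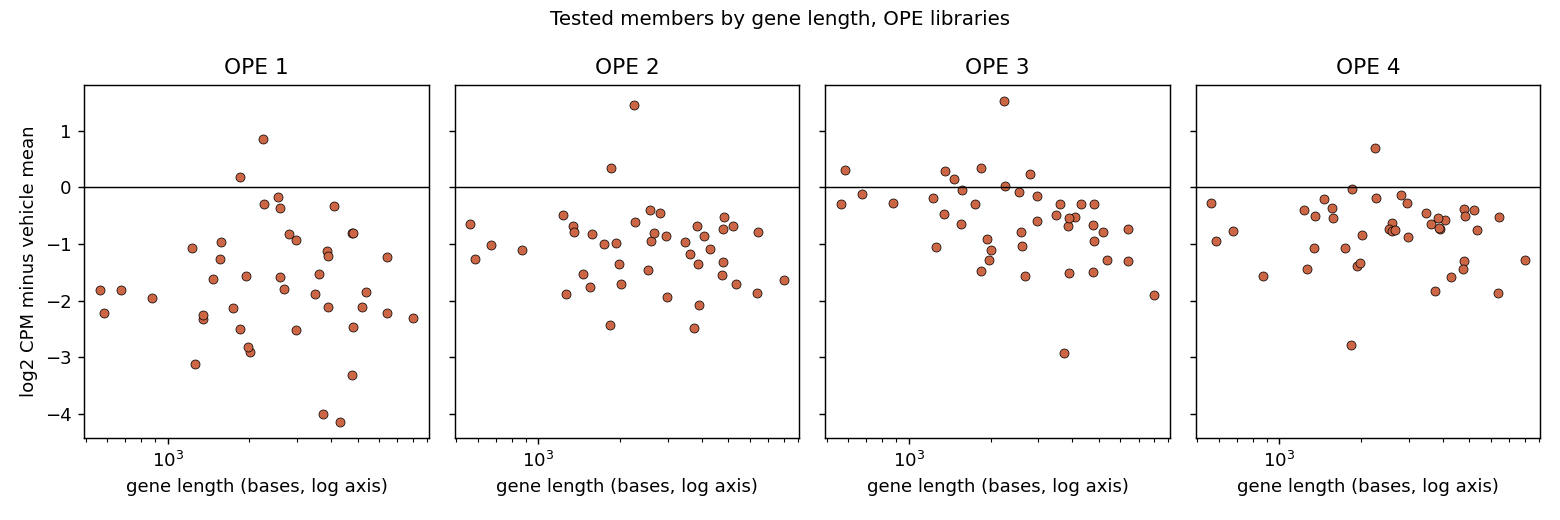
Log2 CPM minus the vehicle mean of the 43 tested members against gene length in bases (log axis), for each OPE library. In OPE 3 the shorter members lie nearer 0 (median -0.29 up to 2000 bases, -0.69 above), and in OPE 1 both lengths lie well below 0.

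Of the other genes of the macrophage programme, 39 of 53 listed could be tested, and 9 fell, none rose and 30 did not pass. Over all genes tested, 0.438% fell past the threshold and 0.0387% rose, and these shares stand beside each list below. The median of the 39 was -0.90. Csf1r, the receptor for the growth factors CSF1 and IL-34, had 25.6, 22.5, 18.9 and 21.97 CPM with vehicle and 2.22, 3.71, 4.02 and 5.93 CPM with OPE, a fall of 2.505 ± 0.24 (adjusted p = 0.00369). Csf1, which encodes its ligand, gave 0.03 ± 0.13 (adjusted p = 0.96), and library totals or upper quartile scaling turned this value to -0.022 and -0.0036. Spi1 had 5.47, 6.73, 5.06 and 6.08 CPM with vehicle and 1.98, 2.58, 2.71 and 2.73 CPM with OPE, a fall of 1.23 ± 0.18 (adjusted p = 0.0209). The other 7 tested myeloid factors did not pass, and the list had a median of -0.22.

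The 3 genes of the complement component C1q, a bridge between debris and phagocytes, all fell, with a median of -2.01: C1qa by 2.03 ± 0.36, C1qb by 1.88 ± 0.32 and C1qc by 2.01 ± 0.38 (adjusted p = 0.0419, 0.0388 and 0.0484). Of 10 other macrophage receptors tested, C3ar1 and C5ar1, the receptors of the complement fragments C3a and C5a, fell by 2.35 ± 0.31 and 1.51 ± 0.27 (adjusted p = 0.0158 and 0.0416), and 8 did not pass. The median of the 10 was -1.02, with 8 below 0 and 2 above. The 2 above were Mertk (0.008 ± 0.14, edgeR adjusted p = 0.99) and Axl (0.013 ± 0.09, adjusted p = 0.971). Their mean levels were 43.9 and 218 CPM with vehicle, and 44.1 and 220 CPM with OPE. Of 13 signalling partners 2 fell and 11 did not pass, and Inpp5d, the phosphatase SHIP1, fell by 1.25 ± 0.17 (adjusted p = 0.0161). The kinases Syk and Btk gave -1.03 ± 0.21 and -0.90 ± 0.41 (adjusted p = 0.0575 and 0.376). None of 3 oxidase partners passed, and Ncf1 gave -0.99 ± 0.28 (adjusted p = 0.16). Of the ligands of the member receptors, Cx3cl1, which encodes the fractalkine sensed by Cx3cr1, could be tested and gave -0.11 ± 0.19 (adjusted p = 0.874), with 3.88 ± 0.485 CPM with vehicle and 3.61 ± 0.562 CPM with OPE (SD, n = 4).

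Markers of other cells that make some of the members were read beside them. Endothelium, which can make Stab1, Mrc1 and Lyve1, had 1 of 12 markers past the threshold, against 0.438% of all genes that fell. This was the receptor gene Flt1 (-1.36 ± 0.25, edgeR adjusted p = 0.0452), and the list median was -0.46. Of the 12, 10 lay below 0 and 2 above, against 47.2% of all genes below 0. In 5 the OPE values all lay below the vehicle values, against 5.44% of all genes. Cdh5 (VE-cadherin) and Pecam1 (CD31), made throughout endothelium, were at -0.84 ± 0.21 and -0.70 ± 0.18 (edgeR adjusted p = 0.103 and 0.116). The summed level of the 12 was 389 to 454 CPM in the vehicle libraries and 242 to 353 CPM in the OPE libraries, and the list median was -0.98 in OPE 1 and -0.36 to -0.28 in the other OPE libraries. Lymphatic endothelium, with Prox1 at -0.28 ± 0.14 and Flt4 at -0.86 ± 0.22 (adjusted p = 0.432 and 0.126), had none of 5 past the threshold, and summed levels of 63.1 to 74.2 and 50.5 to 61.4 CPM. The part of endothelial RNA in the values of Stab1 and Mrc1 was not tested.

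Megakaryocytes and platelets, known sources of Pf4 and F13a1, had none of 3 tested markers past the threshold (median -0.12; summed level 11.3 to 13.4 CPM with vehicle and 9.2 to 14.5 with OPE; Itga2b -0.12 ± 0.23, adjusted p = 0.889), and the platelet gene Gp9 averaged 0.0721 CPM with vehicle and 0.131 CPM with OPE, too low to be tested. Mast cells, which make Fcer1g, had none of 5 past it (median -0.05; Cpa3 -0.83 ± 0.41 and Kit -0.03 ± 0.12, adjusted p = 0.417 and 0.949), with a list median of -2.07 in OPE 1 and 0.55 in OPE 3. Kit turned to 0.03 with the length trend removed. No neutrophil marker had enough reads, and the 5 in the table summed to at most 0.7 CPM in a library, with Elane at 0 in all vehicle libraries. Lymphoid markers had none of 3 tested past it, with summed levels of 1.5 to 4.2 CPM over all libraries. Osteoclasts, relatives of macrophages that make Ctss and Tyrobp, had none of 4 past it, with a median of 0.40. Acp5 and Ctsk, the first 2 listed, were at -0.45 ± 0.15 and -0.15 ± 0.13 (edgeR adjusted p = 0.232 and 0.70), and the other 2 were above 0, up to 0.999, with no overlap between the groups in 1. Their summed level was 58.2 to 71.1 CPM with vehicle and 66.1 to 127 CPM with OPE, highest in OPE 1. Red cells had none of 4 past it (median -0.01; Alas2 -0.38 ± 0.18, adjusted p = 0.398), and their summed level was 1132 CPM in OPE 3 against 384 to 576 CPM in the other libraries. The part of these cells in the members' values was not tested.

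**Figure D5:**
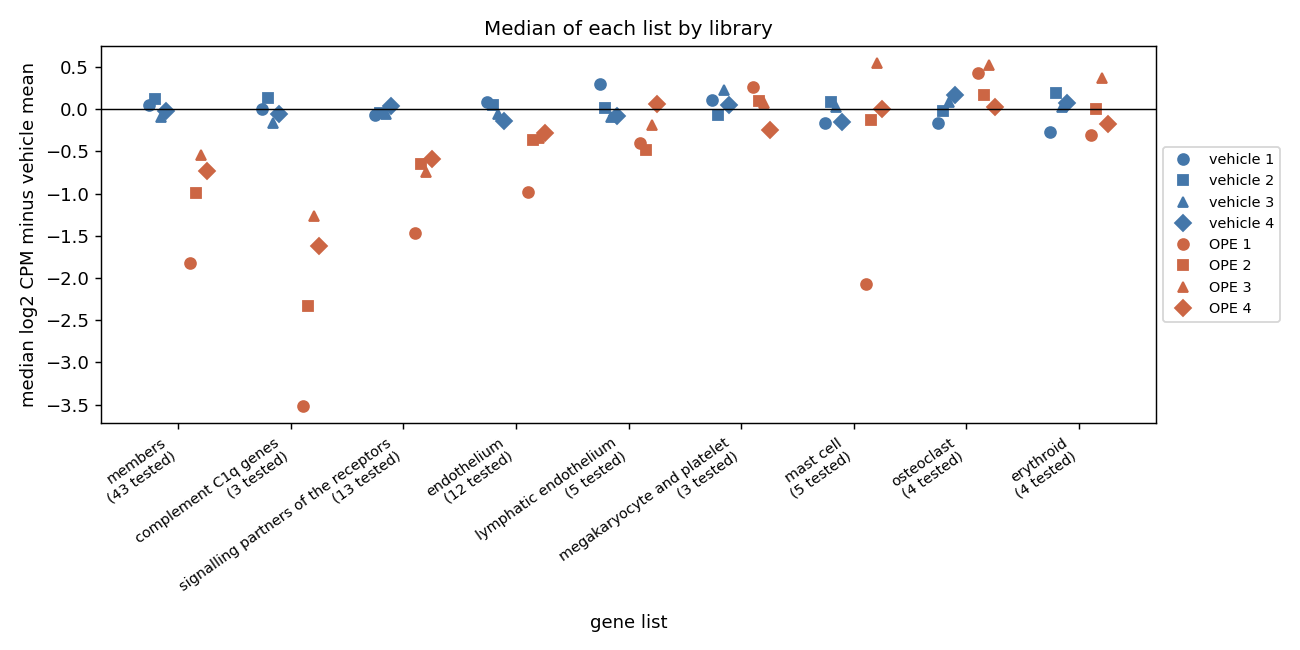
Median log2 CPM minus the vehicle mean of each list of genes in each library, for the members, 2 lists of other macrophage genes and 6 lists of markers of other cells; blue points are vehicle libraries and orange points OPE libraries. The members lie between -1.82 and -0.55 in the OPE libraries and the C1q genes between -3.52 and -1.26, while the endothelial markers lie between -0.98 and -0.28.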

How the data were processed

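Poly-T beads selected messenger RNA from total RNA, per the labels' protocols. Without giving roles, the submitters' processing notes list STAR 2.5, HTSeq 0.6.1, CASAVA 1.8, DESeq2 (version 2 as given) and mm10. The gene annotation and whether counting was stranded are not given in the sources. The authors deposited 1 table with raw read counts, counts divided by a size factor (a signal scale), FPKM, a log2 fold change, p-values and gene length for 21692 genes, per the file headers.

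All 8 libraries, grouped by their titles, entered 1 fit of the raw counts with edgeR 4.0.16 in R 4.3.3 (TMM, filterByExpr, robust quasi-likelihood, two-sided, group only), with Benjamini-Hochberg adjustment at 0.05 over 15517 genes. The biological coefficient of variation was 0.161. Log2 CPM had a prior count of 2. Replicate libraries differed by more than counting noise, with a chi-square over its degrees of freedom of 4.80 or more in each pair. Intervals on reads cover counting error only, since PCR reads are not independent molecules. The steps were tested on simulated data with known changes.

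The members, their 9 classes and the 14 lists of other genes were chosen with earlier results of these data known, and so were the tests and alternatives. Values in every library are given for members past the threshold and for the highest and lowest member of each class. In each other list, genes past the threshold and the first 2 listed are named; Lyz2 and a few others were added after their values were seen, and the results of a few single genes are not reported here. Alternatives were other scalings and filters, DESeq2 1.42.0, limma-voom (limma 3.58.1), a fit that is not robust, edgeR's newer quasi-likelihood method, the replicate number as a block, removal of the gene-length trend, and leaving out libraries. The deposited FPKM served to compare levels between genes, and the deposited signal values were used in no test. Exon overlaps came from GENCODE M21 and promoters from RefSeq.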

Additional observations from a re-analysis of the deposited data

Results flagged for a closer look

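In groups of 4 libraries, a value was singled out where its gap to the nearest other, divided by the range of the group, was above Dixon's 95% critical value for 4 values. Of 106 groups checked, 12 had such a value, and chance gives about 1 in 20. Among the vehicle libraries, vehicle 1 stood apart in Stab1 (0.950, high), Tlr4 (0.849, high), Fcer1g (0.888, low) and Cd68 (0.843, low). Vehicle 2 stood apart on the high side in Ms4a7 (0.956) and Clec4a1 (0.865), and vehicle 4 on the low side in Cd14 (0.875) and Cybb (0.850). Among the OPE libraries, OPE 1 was the low one in all 4 cases: Pld4 (0.958), Cybb (0.937), Dock2 (0.842) and the class median of the intracellular adaptors and cytoskeletal genes (0.836).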

How the results depend on the processing

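No member changed sign under any alternative. The 74 genes past the threshold became 131 with library totals, 136 with no filter, 492 with DESeq2, 112 with the newer quasi-likelihood method, 370 with the gene-length trend removed, and 7 to 308 when 1 library was left out. The 8 members that fell became 20 with DESeq2, 19 with the length trend removed and 1 to 16 when 1 library was left out, and 6 to 12 with the other scalings, filters and fits. The share of all genes that fell moved as well, from 0.438% to 1.88% with DESeq2 and 1.37% with the length trend removed. It was 0.0383% to 1.43% when 1 library was left out, and 0.41% to 0.754% with the other scalings, filters and fits. Other macrophage genes went from 9 to 17 with DESeq2 and 1 to 13 when 1 library was left out. Markers of other cells went from 1 to 5 with DESeq2, 2 with the length trend removed, 0 with the block described below, 0 without OPE 1 and OPE 3, and 0 to 2 when 1 library was left out. Members too low to be tested numbered 5, against 0 with no filter and 11 at a mean of 1 CPM. The receptor class median was -1.27 with no filter and -1.27 with DESeq2, the scavenger class -1.03, -1.05 with DESeq2 and -1.32 without OPE 1 and OPE 3, and the integrins -0.66 at a mean of 1 CPM. Signs turned for 4 genes close to 0: Csf1 (-0.022 with library totals, -0.0036 with upper quartile scaling, -0.11 to 0.088 when 1 library was left out, -0.064 without OPE 1 and OPE 3), Kit (0.033 with the length trend removed, -0.090 to 0.070 when 1 library was left out, 0.012 without OPE 1 and OPE 3), Itga2b (-0.29 to 0.032 when 1 library was left out) and Cx3cl1 (0.073 without OPE 1 and OPE 3). The cause was not tested.

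With the replicate number as a block, 5 members fell (Cx3cr1, Mrc1, Stab1, Laptm5 and Trem2), against 0.361% of all genes, and 62 genes in all passed. Same-numbered libraries deviated together with correlations of 0.31, 0.08, 0.01 and 0.09, and not every library correlated best with its own number, so the numbers were not taken as pairs. At this depth, members that did not reach about 0.544 CPM in at least 4 libraries could not be tested.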
